A study of Mus musculus with 8 samples.

Results

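The genes described here are 10 components of the death pathway that runs from the receptor Fas to the stress kinase Ask1 and on to the JNK kinases. They were chosen by name as partners of the protein Daxx, by a rule that uses no measured value but was set with earlier results of these data known, and all 10 are among the 11789 genes analysed. They are Fas, Fadd, Casp8, Cflar, Ripk1, Map3k5 (which encodes Ask1), Map2k4, Map2k7, Mapk8 and Mapk9. Their RNA was measured by strand-specific sequencing of total RNA from whole mouse pancreas, with 1 library per mouse at 6 weeks of age. The labels give 4 wild type (WT) libraries and 4 of genotype Daxxfl/flPdx1-CreTg (DC), called Daxx-deleted here. Pdx1-Cre recombines in the embryonic pancreatic epithelium, from which acinar, ductal and endocrine cells arise, so vessels, stroma and immune cells of the Daxx-deleted pancreas keep intact Daxx alleles. The labels name no mice with the transgene alone or the floxed alleles alone, so effects of either cannot be told apart from those of losing Daxx. The design text counts 2 females and 2 males per genotype, and no label gives the sex of a library, while RNA of Y-linked genes was high in 2 libraries of each genotype. In whole tissue, fewer cells of a type and less RNA per cell cannot be told apart.

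Fas is a cell-surface receptor whose intracellular death domain, once the Fas ligand binds, recruits the adaptor Fadd and through it pro-caspase-8, which starts the caspase cascade. The product of Cflar, c-FLIP, is a caspase-8 relative without protease activity that competes for the same platform, and Ripk1 is a kinase that directs related complexes towards survival, apoptosis or necroptosis. Daxx was first described as a protein that binds the Fas death domain and links the receptor to Ask1, a kinase that activates Map2k4 and Map2k7, which in turn activate the JNK kinases encoded by Mapk8 and Mapk9. Daxx was later found mostly in the nucleus, as a histone chaperone. The pathway works through binding, cleavage and phosphorylation, and RNA levels do not measure its activity.

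The JNK kinases phosphorylate the transcription factor Jun, a component of AP-1. The AP-1 binding motif was searched for as the pattern TGANTCA (read on both strands), with any base at N. The 250 bases before the annotated start of each gene, taken from RefSeq on build GRCm38.p6, were searched for this motif and for the GC box GGGCGG (also on both strands). All 10 genes were matched, with 14 windows in all, since some genes have more than 1 start. The AP-1 pattern was found in 2 of the 14 windows, and in 6.75% of all 32851 windows of this length. It read TGAGTCA in the window of Fas and TGATTCA in that of 1 of the 2 starts of Map2k7. The GC box was found in 7 of the 14 windows, which belong to 6 genes, and in 32.7% of all windows. The windows below are those of the receptor, because it holds the AP-1 letters, and of the JNK gene pair, with the first of the 2 starts of Mapk8 and the only listed start of Mapk9. Both motifs are in capitals, and each sequence is written in the direction of its gene. The Fas window is chr19:34290409-34290658 on the plus strand, that of Mapk8 chr14:33447159-33447408 on the minus strand and that of Mapk9 chr11:49846501-49846750 on the plus strand.
Fas: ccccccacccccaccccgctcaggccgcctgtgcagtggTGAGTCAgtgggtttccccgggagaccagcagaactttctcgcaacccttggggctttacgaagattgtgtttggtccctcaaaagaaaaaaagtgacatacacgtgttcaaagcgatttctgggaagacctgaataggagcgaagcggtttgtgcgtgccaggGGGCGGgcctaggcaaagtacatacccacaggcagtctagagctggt
Mapk8: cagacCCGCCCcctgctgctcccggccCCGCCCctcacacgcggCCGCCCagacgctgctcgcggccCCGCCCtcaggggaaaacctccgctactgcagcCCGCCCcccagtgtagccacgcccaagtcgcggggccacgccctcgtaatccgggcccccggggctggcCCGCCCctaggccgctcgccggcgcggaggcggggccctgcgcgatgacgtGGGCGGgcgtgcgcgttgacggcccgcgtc
Mapk9: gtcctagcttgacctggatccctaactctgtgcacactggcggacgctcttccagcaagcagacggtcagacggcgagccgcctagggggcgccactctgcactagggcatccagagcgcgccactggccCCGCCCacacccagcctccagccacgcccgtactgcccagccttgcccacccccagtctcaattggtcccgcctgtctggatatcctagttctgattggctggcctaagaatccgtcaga
The AP-1 match of Fas begins 211 bases before the start. The printed Mapk8 window held 7 GC box matches and a GC content of 79.2%, and the Mapk9 window held 1 match and 63.6%. The window of the other Mapk8 start, not printed, held 0 matches and 33.2%, so the contrast with Mapk9 depends on the start. These matches describe letters only, and binding was not measured.

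The 8 libraries held 7705789 to 10517508 reads over the listed genes. Values are normalized read counts, which are reads divided by the size factor of the library, given as mean ± SD over n = 4 mice per genotype. Genes with a mean of at least 10 were tested with limma on log2(value + 1), and a gene was called at a Benjamini-Hochberg adjusted p under 0.05. Daxx itself, which checks the labels, had 39.7, 58.7, 46.7 and 45.2 normalized counts in the 4 wild-type libraries, against 26.8, 23.3, 29.2 and 32.5 in those of the deleted genotype. Every Daxx-deleted library was thus below every wild-type library, at 58.8% of the wild-type mean (log2 fold change -0.74, SE 0.20; exact permutation p = 0.0286, limma adjusted p = 0.9997). Defining genes of acinar cells were abundant in every library, with the summed counts of 11 markers at 3875700.1 to 4570977 in wild-type mice and 3130148 to 4656980.1 in Daxx-deleted libraries. The log2 fold change lay above 0 for 1 of 11 acinar, 2 of 11 islet and 1 of 6 adipocyte markers tested. It lay above 0 for 4 of 8 ductal, 6 of 11 myeloid, 5 of 10 endothelial and 6 of 12 stromal markers. The same held for 2 of 3 nerve and mesothelium markers and for 5033 of all 10468 tested genes. Limma called 0 markers in every list. Myeloid markers, of cells that also carry Fas, summed to 536 to 856 normalized counts in the wild-type mice and 443 to 1094 in Daxx-deleted libraries over 12 of 13 genes. The T and NK cell markers, 12 genes with the Fas ligand gene Fasl among them, are not among the genes analysed. Of 7 B and plasma cell markers only Jchain was, at 0 to 19.6 in wild-type mice and 2.10 to 69.97 in Daxx-deleted libraries. Endothelial markers summed to 837 to 1109.9 and 852 to 1058, stromal markers to 3299.7 to 5052 and 3526 to 5719, and ductal markers to 2657 to 3273 and 2773 to 3103. Islet markers ranged widely, from 2229 to 8046 and from 1769 to 7733, as did adipocyte markers, from 168 to 390.4 and from 73.5 to 645, while 5 of 8 nerve and mesothelium markers summed to 70.8 to 145 and 85.04 to 157. The most abundant of each list were Ctrb1, Krt18, Ins2, Lyz2, Jchain, Kdr, Col3a1, Cfd and Upk3b.

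No genotype difference passed the test in any of the 10 genes, and that of Daxx itself did not pass either (limma adjusted p = 0.9997). Limma called 0 of the 10, beside 0% of all 10468 genes tested. At an unadjusted p under 0.05 limma had 0 of the 10, where 2.88% of all tested genes passed. The quasi-likelihood test of edgeR on recovered reads called 0 of the 10 and 0% of all genes, with 0 of the 10 at an unadjusted p under 0.05 beside 2.86% of all. DESeq2 called 0 of the 10 and 0.00955% of all genes, with 0 of the 10 at an unadjusted p under 0.05 beside 2.09% of all. The values of both genotypes overlapped in each of the 10 genes, while 1.87% of all tested genes had groups that did not overlap. The adjusted p in limma was 0.9997 for each of the 10. The log2 fold changes ran from -0.29 to 0.33, with 4 of 10 above 0 and a median of -0.04, and the median over all tested genes was -0.01. The median size of the log2 fold change, without its sign, was 0.09 for the 10 genes and 0.12 for all tested genes.

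**Figure D1:**
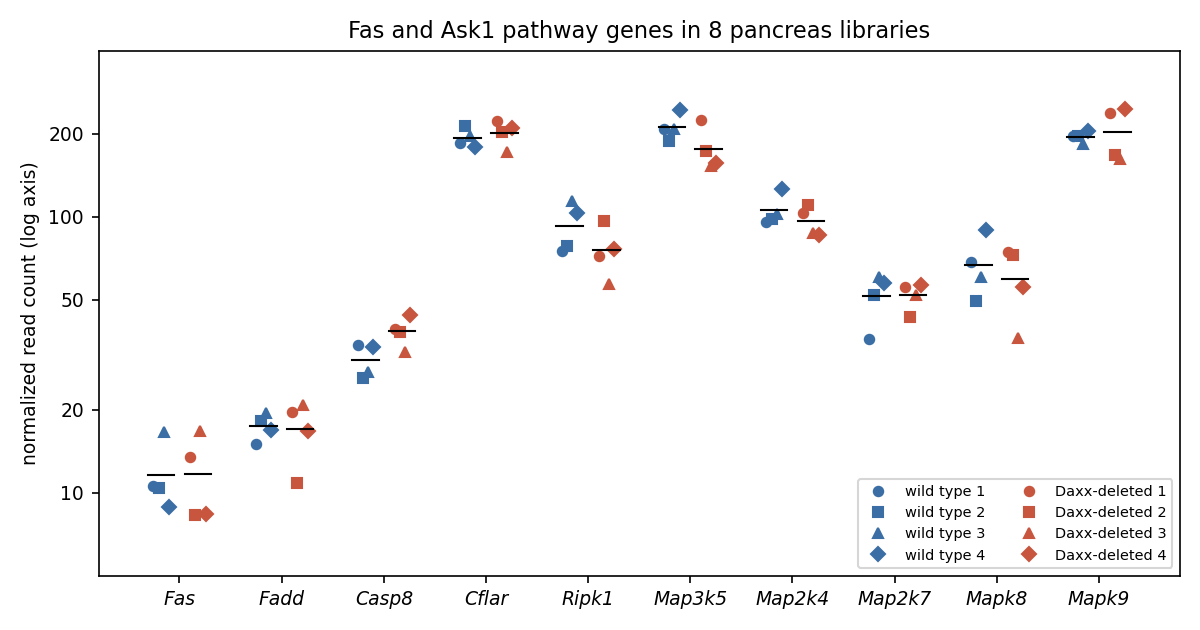
Normalized read counts (log axis) of the 10 genes in each of the 8 libraries, 4 wild type in blue and 4 Daxx-deleted in red, with a marker shape per replicate number and a black bar at the group mean. The colours overlap for every gene, from Fas at 8.33 to 16.7 up to Mapk9 at 161 to 246.

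**Figure D2:**
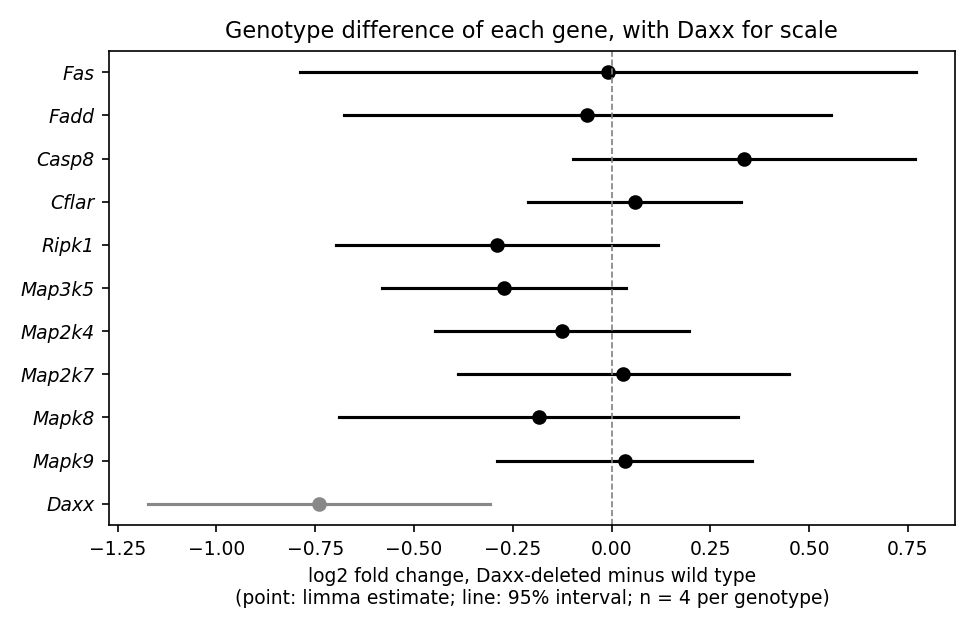
Log2 fold change of each gene, Daxx-deleted minus wild type, with its 95% interval from limma (n = 4 per genotype), and Daxx in grey for scale. The intervals of all 10 genes cross 0, and that of Daxx, from -1.17 to -0.31, does not.

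The receptor was the least read gene of the 10. Fas (ENSMUSG00000024778.12, chromosome 19, 34290666 to 34327772) had 10.6, 10.4, 16.6 and 8.85 normalized counts in wild-type replicates 1 to 4, and 13.4, 8.33, 16.7 and 8.40 in Daxx-deleted replicates 1 to 4. The highest libraries were 1 of each genotype, and the group means were 11.6 ± 3.39 and 11.7 ± 4.08. The log2 fold change between them was -0.01 (SE 0.37, 95% interval -0.79 to 0.77). In percent, this interval reaches from 42.1% lower to 70.7% higher, and these data do not exclude changes within it. Fas rested on 8 to 17 reads per library, for which counting alone gives a coefficient of variation of 30.0%, close to the 29.2% seen among wild-type and the 34.8% seen among Daxx-deleted mice.

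The adaptor gene Fadd (ENSMUSG00000031077.7, chromosome 7, 144577318 to 144582463) had 15.0, 18.3, 19.5 and 16.8 normalized counts in the wild-type mice and 19.6, 10.8, 20.8 and 16.8 in the Daxx-deleted mice. Daxx-deleted replicate 2 had the lowest level, and the other 3 Daxx-deleted libraries lay between 16.8 and 20.8, on both sides of the wild-type mean. The means were 17.4 ± 1.94 and 17.0 ± 4.46, and the log2 fold change was -0.06 ± 0.29 (SE; 95% interval -0.68 to 0.56). An antisense gene, Faddos, overlaps Fadd on the other strand, and the sources used here do not say whether the counting used strand.

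Casp8 had the largest log2 fold change above 0 of the 10 genes, and its relative Cflar lay close to 0. Casp8 (ENSMUSG00000026029.14, chromosome 1, 58795374 to 58847503), the initiator protease of the pathway, had 34.4, 26.1, 27.3 and 33.6 normalized counts in the wild-type mice and 39.2, 38.3, 32.3 and 44.1 in the Daxx-deleted mice. In 3 of the 4 Daxx-deleted libraries the level was above every wild-type library, and replicate 3 lay within the wild-type range. The means were 30.3 ± 4.27 and 38.5 ± 4.85, with a log2 fold change of 0.33 ± 0.20 (SE; 95% interval -0.10 to 0.77). An exact two-sided permutation test over the 70 ways to label the libraries gave p = 0.0857, where the smallest possible p is 0.0286. Casp8 rested on 20 to 46 reads per library.

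Cflar (ENSMUSG00000026031.15, chromosome 1, 58711508 to 58758884) lies 36489 bases before Casp8 on the same strand. It had 186, 213, 197 and 179 normalized counts in the wild-type mice and 223, 203, 172 and 210.0 in the Daxx-deleted mice, so that each genotype spanned most of the range of the other. The means were 194 ± 14.7 and 202 ± 21.7, and the log2 fold change was 0.06 ± 0.13 (SE). This was the narrowest interval of the 10 genes, from -0.21 to 0.33, or from 13.6% lower to 25.5% higher.

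Ripk1 (ENSMUSG00000021408.15, chromosome 13, 34002363 to 34037147) had 74.9, 78.3, 114 and 104 normalized counts in the wild-type mice and 72.3, 96.6, 57.3 and 76.6 in the Daxx-deleted mice. Wild-type replicates 3 and 4 were the highest, and Daxx-deleted replicate 3 was the lowest. The means were 92.7 ± 19.1 and 75.7 ± 16.2, with a log2 fold change of -0.29 ± 0.19 (SE; 95% interval -0.70 to 0.12) and an exact permutation p of 0.171. The coefficient of variation within each genotype, 20.6% and 21.4%, was larger than the 11.1% that counting alone gives. Leaving out 1 library moved the log2 fold change to between -0.41, without Daxx-deleted replicate 2, and -0.17, without Daxx-deleted replicate 3. The first 432 bases of Ripk1 overlap Serpinb6a, which lies on the other strand.

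Map3k5, the Ask1 gene, had the smallest p of the 10 genes and did not pass the test. This gene (ENSMUSG00000071369.11, chromosome 10, 19934472 to 20142753) had 209, 188, 208 and 243 normalized counts in the wild-type mice and 224, 173, 153 and 156 in the Daxx-deleted mice. In 3 of the 4 Daxx-deleted libraries the level was below every wild-type library, and Daxx-deleted replicate 1 was the second highest of all 8. The means were 212 ± 23.1 and 177 ± 32.8, so that Daxx-deleted mice had 83.3% of the wild-type level. On the log2 scale the difference was -0.27 ± 0.14 (SE; 95% interval -0.58 to 0.04), and the exact permutation p was 0.114. The interval reaches from 33.2% lower to 2.49% higher, on 144 to 275 reads per library.

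The libraries with lower and higher Map3k5 were those with low and high Ctrc, the gene of the digestive enzyme chymotrypsin C, which stands at separate levels in these mice. The 4 libraries with 2723 to 4297 normalized counts of Ctrc, which are wild-type replicate 2 and Daxx-deleted replicates 2, 3 and 4, had Map3k5 at 188 or lower. The other 4, with Ctrc at 57356 to 76266, had Map3k5 at 208 or higher. Within each set of 4 the order by Ctrc was not the order by Map3k5. This split was noticed after the values were seen and was not tested. How many of all tested genes part in the same way was not counted. Map3k5 was picked out here, and the other genes of the path from Fas to the JNK kinases overlapped across the split. Mapk8, for example, had 36.5 to 72.5 normalized counts in the libraries with low Ctrc and 60.4 to 89.4 in those with high Ctrc. Whether Map3k5 and Ctrc are linked was not tested. A fit with the log2 level of Ctrc as a covariate was also chosen after the values were seen. It gave Map3k5 a log2 fold change between genotypes of -0.08, against -0.27 without the covariate. Ctrc itself had a log2 fold change of -2.30 ± 0.92 (SE) between genotypes. The part of Ctrc and that of genotype therefore cannot be told apart in this fit.

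The kinases between Ask1 and JNK gave values near 0. Map2k4 (ENSMUSG00000033352.11, chromosome 11, 65688243 to 65788297), which encodes a kinase that acts on JNK and p38, had 96.1, 97.8, 102 and 127 normalized counts in the wild-type mice and 103, 110.0, 87.5 and 86.1 in the Daxx-deleted mice. Wild-type replicate 4 was the highest library, and Daxx-deleted replicates 3 and 4 were the lowest. The means were 106 ± 14.2 and 96.7 ± 11.8, and the log2 fold change was -0.13 ± 0.15 (SE; 95% interval -0.45 to 0.20). Without wild-type replicate 4 it was -0.037. With equal library totals it was -0.0043, in a setting where the median of all tested genes was 0.11.

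Map2k7 (ENSMUSG00000002948.19, chromosome 8, 4238740 to 4247897) encodes a kinase specific to JNK. Its values were 36.1, 52.2, 60.4 and 57.5 normalized counts in the wild-type mice and 55.7, 43.3, 52.1 and 56.7 in the Daxx-deleted mice, with wild-type replicate 1 the lowest and replicate 3 the highest of all 8. The means were 51.6 ± 10.8 and 52.0 ± 6.09, and the log2 fold change was 0.03 ± 0.20 (SE; 95% interval -0.39 to 0.45). Without wild-type replicate 1 it was -0.13. The annotation has a second protein-coding gene, Gm49320, on the same strand over the whole of Map2k7 but its first bases, so the assignment of reads to Map2k7 is uncertain.

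The JNK genes differed in level, and whether the genes differ in their spread between mice was not tested. Mapk8 (JNK1; ENSMUSG00000021936.14, chromosome 14, 33377898 to 33447158) had 68.7, 49.6, 60.4 and 89.4 normalized counts in the wild-type mice and 74.3, 72.5, 36.5 and 55.6 in the Daxx-deleted mice. The highest library was wild-type replicate 4 and the lowest was Daxx-deleted replicate 3. The means were 67.0 ± 16.9 and 59.7 ± 17.6, with a log2 fold change of -0.18 ± 0.24 (SE; 95% interval -0.69 to 0.32). Without Daxx-deleted replicate 3 the log2 fold change was 0.03. The coefficients of variation, 25.2% and 29.5%, stood above the 12.9% that counting alone gives.

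Mapk9 (JNK2; ENSMUSG00000020366.18, chromosome 11, 49846751 to 49886421) had 197, 196, 183 and 205 normalized counts in the wild-type mice and 237, 167, 161 and 246 in the Daxx-deleted mice. The 4 wild-type libraries lay close together, and the Daxx-deleted libraries lay on both sides of them, 2 above and 2 below all of them. The means were 195 ± 8.86 and 203 ± 44.7, and the log2 fold change was 0.03 ± 0.15 (SE; 95% interval -0.29 to 0.36). The coefficient of variation was 4.55% in wild type, below the 7.12% that counting gives on average, and 22.03% in Daxx-deleted mice. Whether the spread differs between genotypes was not tested.

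Between genes, levels are compared per kilobase of annotated exon, as normalized counts over all 8 libraries (mean ± SD, n = 8). Map3k5 was the highest at 31.9 ± 5.32 per kilobase, followed by Mapk9 at 29.3 ± 4.45, Map2k4 at 21.7 ± 2.79, Cflar at 15.6 ± 1.40 and Map2k7 at 13.5 ± 2.13. Casp8 stood at 11.9 ± 2.10, Ripk1 at 10.1 ± 2.25, Fas at 5.65 ± 1.68, Mapk8 at 5.54 ± 1.44 and Fadd at 4.41 ± 0.817. By these means the Ask1 gene had the most RNA per length and the adaptor gene the least. Against all listed genes Map3k5 stood at percentile 78.1 and Fadd at percentile 21.5. Of the 9 pairs of neighbours in this order, only Map2k4 and Cflar had ranges over the 8 libraries that lay apart. Map2k4 was also below Mapk9 in 8 of 8 libraries, although their ranges overlapped. Fas was above Mapk8 in 4 of 8 libraries and Cflar above Map2k7 in 5 of 8, so these neighbours did not differ beyond their spread. Exon length is the union over annotated transcripts, which lowers the level per kilobase where only short transcripts are made. It was 12669 bases for Cflar, 11444 for Mapk8 and 3903 for Fadd, so the place of these genes depends on it.

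Across libraries the 10 genes did not all go up and down together, and how far they share a pattern was not tested. Daxx-deleted replicate 3 was the lowest of the 8 libraries for 5 genes (Cflar, Ripk1, Map3k5, Mapk8 and Mapk9) and the highest for Fas and Fadd. Daxx-deleted replicate 2 was the lowest for both Fas and Fadd. Wild-type replicate 4 was the highest for Map3k5, Map2k4 and Mapk8. Daxx-deleted replicate 1 lay above the mean of the gene in 9 of 10 genes, all but Ripk1, with a median deviation of 0.20 on the log2 scale, and replicate 3 had a median deviation of -0.20. These libraries, with the largest median deviations in either direction, are of the same genotype. How all tested genes stood in them was not counted, so a shift of the whole library cannot be told apart from one of these genes.

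**Figure D3:**
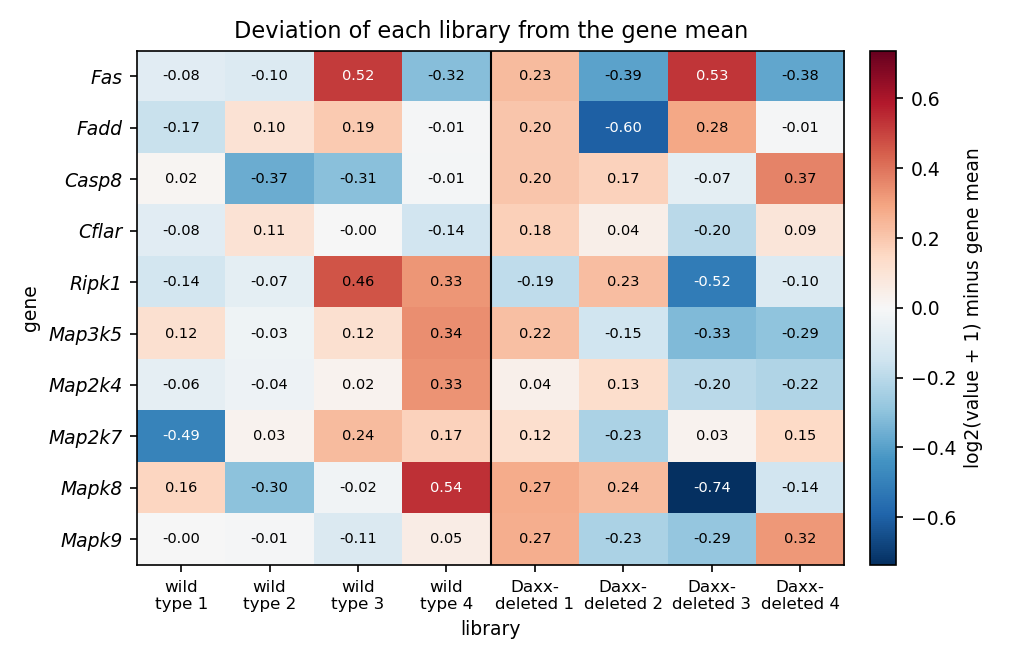
Deviation of log2(value + 1) in each library (columns) from the mean of the gene over the 8 libraries (rows are the 10 genes), with red above and blue below the mean and the genotypes parted by a black line. Daxx-deleted replicate 3 is blue for Casp8, Cflar, Ripk1, Map3k5, Map2k4, Mapk8 and Mapk9. It is red for Fas and Fadd and slightly above the mean for Map2k7 (0.03). Daxx-deleted replicate 1 is red in all rows but Ripk1.

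Ratios of the normalized counts of related genes within a library do not depend on how libraries are scaled. The log2 differences between genotypes given with them add 1 to each value first, so they are not wholly free of the scaling. The ratio of Cflar, the inhibitor, to Casp8, the protease, was 5.41, 8.15, 7.21 and 5.32 in wild-type mice and 5.68, 5.30, 5.32 and 4.76 in the Daxx-deleted mice, in normalized counts. Wild-type replicates 2 and 3 were above all other libraries, and the other 2 wild-type libraries lay within the Daxx-deleted range. The means were 6.52 ± 1.39 and 5.27 ± 0.380, and the difference on the log2(value + 1) scale was -0.28 ± 0.16 (SE; 95% interval -0.66 to 0.11). Per length of exon, Cflar stood at 1.09 to 1.86 times Casp8 over the 8 libraries.

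For the JNK genes, Mapk9 over Mapk8 was 2.86, 3.95, 3.03 and 2.29 in wild-type mice and 3.19, 2.31, 4.43 and 4.42 in the Daxx-deleted mice. Daxx-deleted replicates 3 and 4 were the highest and the ranges overlapped, with means of 3.03 ± 0.689 and 3.59 ± 1.03 and a log2 difference of 0.22 ± 0.27 (SE; 95% interval -0.45 to 0.88). Per length, Mapk9 was 3.86 to 7.47 times Mapk8 in every library. For the kinases above them, Map2k7 over Map2k4 was 0.376, 0.533, 0.590 and 0.455 in wild-type mice and 0.540, 0.394, 0.595 and 0.659 in the Daxx-deleted mice. Map2k4 had more reads than Map2k7 in all 8 libraries, and the log2 difference between genotypes was 0.16 ± 0.21 (SE; 95% interval -0.36 to 0.67). No test was made on these ratios.

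**Figure D4:**
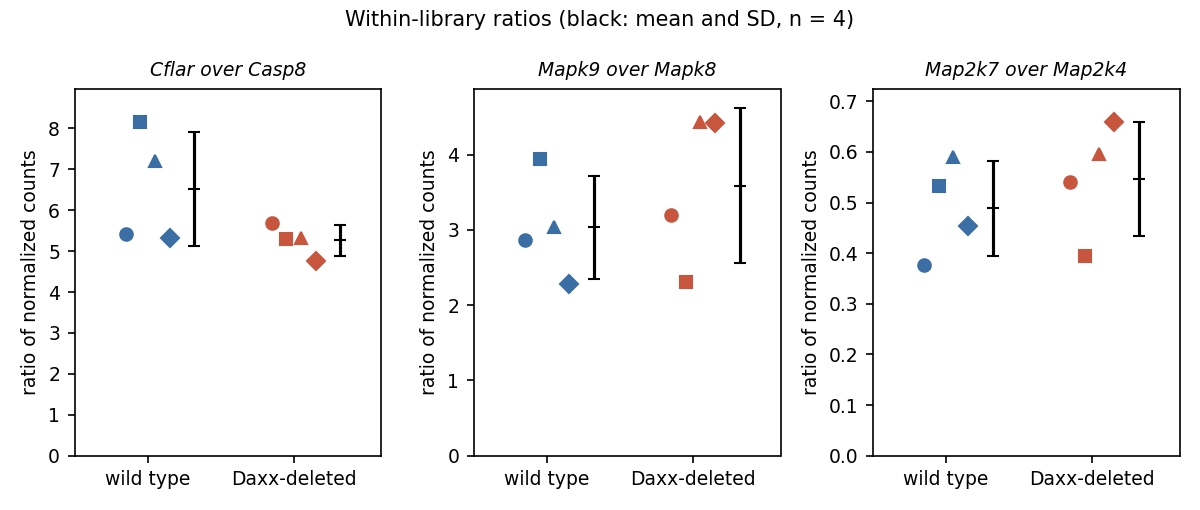
Within-library ratios of normalized counts for Cflar over Casp8, Mapk9 over Mapk8 and Map2k7 over Map2k4, with wild type in blue, Daxx-deleted in red, a marker shape per replicate number and the mean and SD (n = 4) in black. Axes begin at 0, and the genotypes overlap in all 3 ratios.

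The rest of the pathway was read from 8 lists with 167 different genes, of which 147 are listed and 139 were tested. None passed: limma called 0 higher and 0 lower in the Daxx-deleted mice, with 2 at an unadjusted p under 0.05 (1.44%, beside 2.88% of all tested genes). edgeR and DESeq2 each called 0 of the 139, with 4 and 3 at an unadjusted p under 0.05, beside 2.86% and 2.09% of all tested genes. The median log2 fold change over the 139 genes was -0.00 and the median size 0.10, beside -0.01 and 0.12 over all tested genes. The groups did not overlap in 2 of the 139 genes, Hipk2 and Stub1, or 1.44%, beside 1.87% of all tested genes. The genes named below are those with the smallest p in each direction in their list, and none passed over all genes (limma adjusted p of 0.9997 each).

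Among death receptors, ligands and adaptors, 8 of 14 tested genes lay above 0 and the median was 0.03. Tradd, the adaptor of the TNF receptor, had a level of 21.5 ± 7.19 normalized counts in wild type, against 14.8 ± 5.23 in the Daxx-deleted mice. Traf2, a ubiquitin ligase that also binds Ask1, had 46.1 ± 8.71 and 55.9 ± 9.06. Its relative Traf3 had 139 ± 13.9 and 158 ± 12.9, and the death receptor gene Tnfrsf21 had 85.6 ± 26.8 and 67.5 ± 17.2. Tnfrsf21 was highest in wild-type replicate 3, at 124. Its log2 fold change of -0.33 became -0.14 without that library and -0.15 without Daxx-deleted replicate 4. Among regulators of the Ripk1 complexes, 11 of 18 lay above 0 with a median of 0.02. There the inhibitor of apoptosis gene Birc3 had 51.4 ± 8.06 and 42.0 ± 5.84, and Rnf31, of the linear ubiquitin ligase, had 93.0 ± 6.497 and 108 ± 18.5. Tab3, an adaptor of the kinase Tak1, had 38.001 ± 9.74 and 30.3 ± 12.0, and Chuk, an I-kappa-B kinase gene, had 164 ± 27.7 and 178 ± 32.7.

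Among executioner caspases and the mitochondrial arm, which carry out the cleavage that caspase-8 starts, 10 of 24 lay above 0 with a median of -0.10. Htra2, a mitochondrial protease released in apoptosis, had 205 ± 39.3 and 165 ± 31.0. On the other side Dffb, the nuclease that cuts DNA in dying cells, had 10.98 ± 1.89 and 13.2 ± 1.27, and Bcl2l11, which encodes the pro-apoptotic protein Bim, had 25.7 ± 7.62 and 28.7 ± 4.12.

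The list of Ask1 regulators held both genes with an unadjusted limma p under 0.05. Of its 30 tested genes, 11 lay above 0, with a median of -0.04. A place on the list does not show that a gene acts on Ask1. Hipk2, a nuclear kinase that binds Daxx, had 553, 533, 515 and 575 normalized counts in the wild-type mice and 609, 646, 704 and 679 in the Daxx-deleted mice. All 4 Daxx-deleted libraries lay above all wild-type libraries, and the log2 fold change was 0.28 ± 0.10 (SE; 95% interval 0.06 to 0.49; limma adjusted p = 0.9997). Hipk2 is named for its small p, a choice that favours groups apart. Ddit4, a stress-induced inhibitor of mTOR signalling, had 103, 129, 266 and 93.0 in wild-type mice and 82.6, 88.3, 95.8 and 86.1 in the Daxx-deleted mice. Wild-type replicate 3 stood far above the rest, and without it the log2 fold change of -0.61 became -0.28. Stub1, a ubiquitin ligase that works with chaperones, had 175 ± 14.0 and 151 ± 8.78 with no overlap, and Pdcd6ip had 308 ± 20.3 and 344 ± 36.2.

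Among other kinases upstream of JNK, 15 of 19 lay above 0, with a median of 0.07, beside 5033 of all 10468 tested genes above 0. The list held 1 gene past 0.5 in size, Tnik, with 8.49 ± 2.74 and 15.6 ± 5.61 normalized counts. Its log2 fold change was 0.78 ± 0.38 (SE). Tnik rested on 6 to 21 reads per library, for which counting alone gives a coefficient of variation of 30.8%. Map3k20 had 42.1 ± 12.3 and 54.8 ± 7.83, Map3k3 had 94.8 ± 5.75 and 80.5 ± 7.69, and Taok1 had 285 ± 55.9 and 272 ± 55.4. In the p38 arm, 2 of 6 lay above 0 with a median of -0.04. The kinase gene Map2k6 had 9.42 ± 4.45 and 13.4 ± 5.07, and Map2k3, its paralogue, had 85.3 ± 16.6 and 96.2 ± 16.0. Mapkapk2, a p38 substrate kinase, had 191 ± 22.8 and 170.1 ± 8.11, and Mapk13 had 56.4 ± 14.9 and 48.2 ± 7.25.

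JNK scaffolds and phosphatases had 6 of 15 above 0 and a median of -0.03. The phosphatase genes Dusp6 and Dusp7, which act mainly on ERK, had 25.7 ± 1.62 and 36.0 ± 9.53, and 49.2 ± 9.40 and 63.4 ± 18.1. Dusp16, a JNK phosphatase, had 106 ± 21.0 and 90.7 ± 15.8, and Dusp8 had 117 ± 62.0 and 88.4 ± 22.7. AP-1 genes and other JNK targets had 5 of 13 above 0 and a median of -0.05. Jun, the JNK substrate, had 149.8, 106, 318 and 130.1 normalized counts in the wild-type mice and 109, 125, 122 and 87.1 in the Daxx-deleted mice. Wild-type replicate 3 was again the highest library, and without it the log2 fold change of -0.54 ± 0.26 (SE) became -0.21. Jund had 248 ± 86.7 and 196 ± 61.6, Fosl2 had 68.9 ± 17.1 and 71.8 ± 7.35, and Irs1 had 72.0 ± 10.5 and 98.0 ± 39.9. Jund and Dusp8 were also highest in wild-type replicate 3, at 372 and 202. Irs1 was highest in Daxx-deleted replicate 4, at 156, with the other Daxx-deleted libraries at 67.7 to 88.3.

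**Figure D5:**
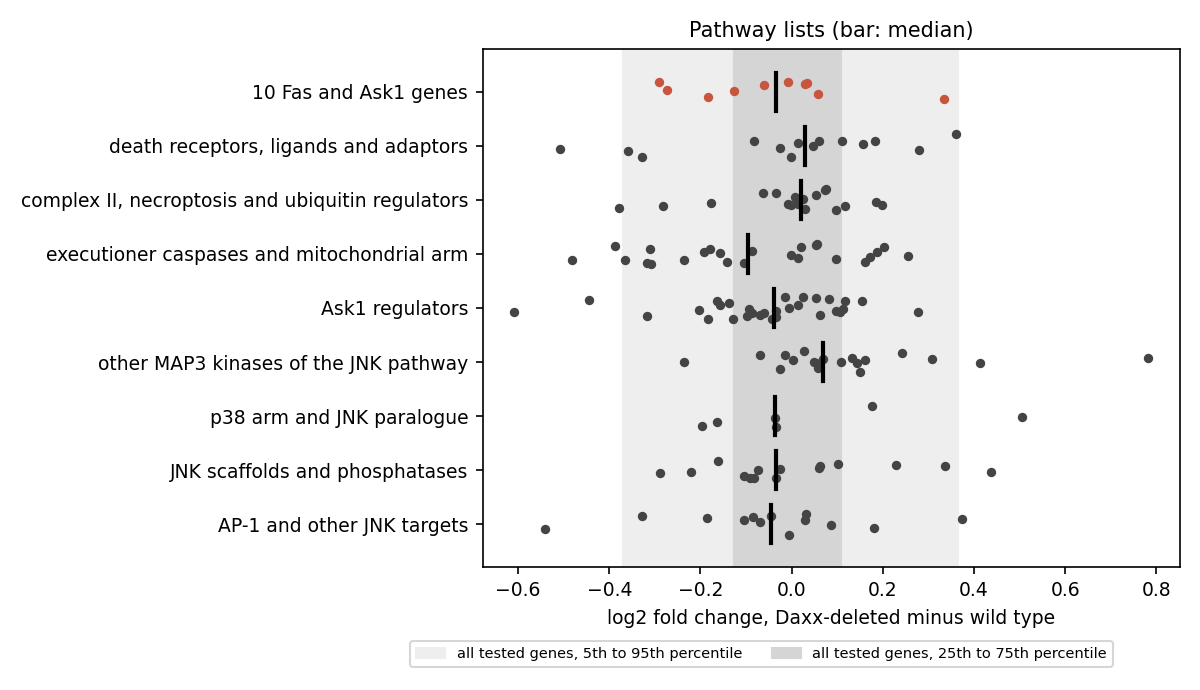
Log2 fold changes (Daxx-deleted minus wild type) of the 10 genes, in red, and of the tested genes of the 8 pathway lists, in grey, with a bar at each median and bands for the 25th to 75th and 5th to 95th percentiles of all tested genes. Every median lies within the inner band, from -0.13 to 0.11.

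Of the 6423 genes whose mean reached 50, those whose log2 levels ran most like Fas over the 8 libraries were Zbtb22 (Pearson r = 0.93, Spearman rho = 0.88), Cldn7 (0.93 and 0.76) and Rffl (0.92 and 0.74). Without the 2 libraries farthest from the median of the other gene, r was 0.75, 0.72 and 0.89. For Map3k5 they were Itga1 (0.94 and 0.95), Ddx42 (0.94 and 0.88) and Foxj3 (0.93 and 0.83), with r of 0.93, 0.87 and 0.86 without those libraries. These are the highest of many values over n = 8 libraries that share depth and scaling, and they are given as a description.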

How the data were processed

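Per the labels' protocols, libraries were made from total RNA with a TruSeq Stranded kit. Per the submitters' processing notes, the build was GRCm38 and the tools were STAR 2.6.0b and DESeq2. The sources used here do not give the read counter, the annotation or the gene filter. The deposited table holds a signal, normalized counts that the authors scaled by library. In the values, 100% were whole multiples of 1 step per library within a tolerance of 0.001, which gave back whole reads. With versions left off, 11786 of the 11789 IDs are in GENCODE M21 (GRCm38); coordinates and exon lengths come from it. RefSeq windows are on GRCm38.p6.

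Genes with a mean of at least 10 (10468 genes, all 10 described genes among them, 1321 left out) were fitted as log2(value + 1) with limma 3.58.1 (R 4.3.3, trend option) and genotype as the only term. Fold changes on this scale understate changes of low genes. Fas, with a mean of 11.7 over 8 libraries, is just inside the filter. P-values are two-sided and adjusted over all tested genes. The alternatives were edgeR 4.0.16 and DESeq2 1.42.0 (both run on those whole reads), other pseudocounts, scalings, filters and covariates, and each library left out in turn. The method was tested on simulated data. Replicates were numbered in accession order, and the numbers pair nothing. The labels do not say that libraries come from separate mice, but the design text counts 4 mice per genotype. Chi-square values per degree of freedom between libraries of a genotype were 6.81 to 25.3, so none was counted as a repeat. The members and lists were chosen with earlier results of these data known. Named beside the 10 genes were Daxx, up to 2 tested genes per direction and list with the smallest p, the 3 genes most like Fas and most like Map3k5, and the most abundant gene of each marker list; Ctrc was chosen after its values were seen. A gene that this rule names is not reported here.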

Additional observations from a re-analysis of the deposited data

Results flagged for a closer look

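Among 122 groups of 4 libraries checked, 6 had a library far from the other 3, and chance flags about 1 in 20. None was a group of the 10 genes or of their ratios. Wild-type replicate 2 was low in Chuk (123 normalized counts, others 175 to 181) and in Bcl2l11 (14.3, others 28.2 to 30.8), and high in Stub1 (196, others 166 to 169). Daxx-deleted replicate 1 was low in Dusp16 (67.1, others 96.9 to 99.96). Among the marker genes, Krt18, of ductal cells, was high in Daxx-deleted replicate 4 (1123, others 908 to 934), and Lyz2, of myeloid cells, was high in wild-type replicate 1 (232, others 146 to 158).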

How the results depend on the processing

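None of the 10 genes was called in any of 19 alternative settings. Among all genes 1 was called with equal library totals, robust moderation, a Y-linked covariate or DESeq2, and 0 to 1 with a library left out (1 without Daxx-deleted replicate 2), in place of 0. This gene was Bglap3 in each of the 4 named settings, and its values are not examined here. The median log2 fold change of the 10 genes ran from -0.13, without wild-type replicate 1 or over the 7 genes with a mean of at least 50, to 0.08, with equal library totals or without Daxx-deleted replicate 2. Under equal library totals all tested genes had a median of 0.11, and values under it are read against that shift. Of 1116 alternative values for 61 single results, 1063 kept their direction and 53 changed sign, none of them past the test before or after. Casp8, Cflar, Ripk1, Map3k5 and Map2k4 kept their sign in every setting that gave a value. The filter at a mean of 50 gave no value for Fas, Fadd and Casp8. Sign changes below are in log2 fold change, and the cause of each was not tested.

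With equal library totals the values were Fas 0.10, Fadd 0.054, Taok1 0.052, Zbtb22 0.094, Ctrb1 0.063 and Lyz2 0.0085. With Ctrc as a covariate, chosen after the values were seen, they were Fas 0.13, Fadd 0.022, Mapk8 0.079, Taok1 0.086, Zbtb22 0.022 and Col3a1 -0.15. With edgeR they were Fas 0.010, Lyz2 0.0041 and Cfd 0.24, and with DESeq2 Fas 0.0081 and Cfd 0.21. With each library left out in turn, the range was -0.19 to 0.16 for Fas, -0.17 to 0.13 for Fadd, -0.13 to 0.11 for Map2k7, -0.32 to 0.031 for Mapk8 and -0.067 to 0.13 for Mapk9. Among the other named genes it was -0.043 to 0.31 for Bcl2l11, -0.015 to 0.18 for Chuk, -0.52 to 0.021 for Dusp8, -0.037 to 0.23 for Fosl2, -0.20 to 0.064 for Taok1, -0.078 to 0.022 for Zbtb22, -0.024 to 0.19 for Cldn7 and -0.042 to 0.12 for Rffl. Among marker genes it was -0.13 to 0.12 for Col3a1, -0.16 to 0.070 for Ctrb1, -1.62 to 0.32 for Cfd, -0.039 to 0.076 for Krt18 and -0.42 to 0.13 for Lyz2. No paired analysis was possible because the labels give no replicate numbers. Depth limits Fas and Fadd, at 8 to 20 reads per library. It also limits other named genes, among them Tnik (6 to 21 reads), Map2k6 (3 to 18) and Dffb (8 to 16).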
